A study of Mus musculus with 40 samples.

Results

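The genes described here encode cytokines, chemokines and interferons, their receptors, the proteins that carry their signals into the cell, and genes that those signals switch on. Probes were chosen by gene symbol alone, whatever their values. The symbols were interleukin genes with a number, the CCL, CCR, CXCL, CXCR, TNF, TLR, IRF, IFI, IFN, STAT, JAK and SOCS families, and the NFKB family without Nfkbia. In all, 83 of the 3045 probes of the panel fitted, and they stand for 79 of its 2756 genes. Ccr2, Il4, Il4i1 and Tlr4 have 2 probes each. Sorted by the known role of the product, 35 probes belong to ligands, 23 to receptors, 12 to signal transducers and 13 to induced genes and feedback inhibitors. The symbol rule also takes in Il4i1, an amino acid oxidase named for its induction by interleukin 4.

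The tissue was the duodenum, the first stretch of the small intestine. It came from male wildtype B6C3F1 mice, offspring of a cross of 2 inbred strains, that had been exposed for 28 days. Each exposed group held 7 libraries. One was given Cr(VI), chromium in its hexavalent form, in the drinking water at 180 ppm. Captan was fed at 6000 or 12000 ppm and folpet at 6000 or 16000 ppm, and 5 libraries came from control mice. Both fungicides carry a trichloromethylthio group on the nitrogen of a cyclic imide, whose ring is aromatic in folpet and a cyclohexene in captan. The assay, TempO-Seq, joins 2 short probes that bind next to each other on an RNA and counts the joined products by sequencing. The tissue was fixed in formalin, embedded in paraffin and lysed whole, so fewer cells of a type and less RNA per cell cannot be told apart. The labels do not say that each library came from a separate mouse. The p-values therefore reflect how far libraries of a group differ, and some of that may be technical.

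Cytokines are secreted proteins that bind receptors at the cell surface. Interferons and many interleukins signal through Janus kinases (JAK) to transcription factors of the STAT family, while interleukin 1, TNF and Toll-like receptors release NF-kappaB from its inhibitors. SOCS proteins and inhibitors of NF-kappaB are made in response and damp the signal. In the small intestine the epithelium itself makes some of these proteins, interleukin 18 among them, and others come from immune and connective tissue cells below it.

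Interferon-induced genes carry a short control element, the interferon-stimulated response element, and the letters of its core are shown here for the members the results below turn on. Sequences are from the RefSeq promoter table, build GRCm38.p6, read 5′ to 3′ on the strand of the gene. Capitals mark matches, on either strand, to GAAA and GAAA with any 2 bases (NN) between them. The window searched ran from 250 bases before to 50 bases after the start of each gene, 300 bases in all. The Ifitm2 stretch lies at chr7:140955973-140956032 on the minus strand, from base -71 to base -12 relative to the start. The Ifitm3 stretch, chr7:141010715-141010744 on the minus strand, covers bases 1 to 30 of the transcribed region and holds 2 matches. The Ifit1 stretch is chr19:34640769-34640828 on the plus strand, from base -120 to base -61. The Socs1 stretch is chr16:10785582-10785641 on the minus strand, from base -105 to base -46, and its 2 matches overlap.
Ifitm2: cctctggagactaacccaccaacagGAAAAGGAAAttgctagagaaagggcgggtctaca
Ifitm3: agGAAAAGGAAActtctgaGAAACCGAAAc
Ifit1: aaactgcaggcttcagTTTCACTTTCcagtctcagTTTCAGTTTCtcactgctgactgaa
Socs1: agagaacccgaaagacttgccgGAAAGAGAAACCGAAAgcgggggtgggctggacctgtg

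Of the 79 member genes, 63 have a promoter in the table. A match to these letters stood in 8 of the 63, which is 12.7%, against 3.99% of all 27025 genes in the table. The 8 were Cxcl10, Ifit1, Ifit3, Ifitm2, Ifitm3, Il4, Socs1 and Tnfrsf17. The kappaB letters, GGGA and TTTCC with any 1 base (N) between them, stood in 6 members (9.52%) and in 0.466% of all genes. Those 6 were Cxcl1, Cxcl2, Cxcl3, Il6, Nfkb2 and Tlr3. The STAT letters TTCNNNGAA stood in 11 members (17.5%) and in 9.55% of all genes. A match describes letters and does not show that a factor binds there.

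Libraries held between 1763440 and 7904819 counts. Member probes took 0.0706% to 0.635% of a library's counts, and 43.4% of the 3320 member values were 0, against 28.5% of the values of the whole panel. Transcripts of pancreatic acinar cells, read by 18 probes, took 4.92% to 82.1% of the counts in Cr(VI) libraries. They took 1.22% to 35.0% in captan 6000 ppm, 1.33% to 54.2% in captan 12000 ppm, 1.80% to 40.2% in folpet 6000 ppm, 14.4% to 44.8% in folpet 16000 ppm and 21.2% to 77.6% in control libraries. The share exceeded 50% in 7 libraries, 4 of them Cr(VI) (replicates 2, 3, 4 and 7), 1 captan 12000 ppm (replicate 7) and 2 control (replicates 4 and 5). Control replicate 5 stood apart, with 22 of the 83 member probes above 0, where the other libraries had 37 to 60. The same held over the whole panel, with 1460 of its 3045 probes above 0 there and 1908 to 2376 in the other libraries. Enterocyte markers, 6 probes, were above 0 in every library. They summed to 65443 to 85195 CPM in Cr(VI), 59115 to 84250 CPM in captan 6000 ppm, 64645 to 91278 CPM in captan 12000 ppm, 48564 to 102375 CPM in folpet 6000 ppm and 72516 to 95897 CPM in folpet 16000 ppm libraries, against 18661 to 63131 CPM in control. In that order of groups 4, 3, 5, 3 and 5 of the 6 probes rose against control and none fell, with median log2 fold changes of 0.91, 0.76, 0.80, 0.83 and 0.80. Some of these markers thus rose in each exposed group, by unequal amounts. Klf4 averaged 335 to 388 CPM in the exposed groups and 133 CPM in control. Cdh1 averaged 703 to 848 CPM in the exposed groups and 689 CPM in control. The part of these markers in the member changes against control given below was not tested. Values below are CPM, the counts of a probe scaled to a common library size by the TMM method, and they compare libraries for 1 probe but not 1 probe with another.

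Most members of this network did not pass the test in any exposed group. A probe counts as changed at an adjusted p under 0.05, from edgeR's quasi-likelihood test over all 2541 probes that passed a filter on low counts, and 67 member probes passed that filter. Against control, 2 members fell with Cr(VI) and none rose. Of all tested probes 5.94% were called there, 2.95% higher and 2.99% lower. With captan 6000 ppm 3 members fell and 1 rose, where 5.16% of all tested probes were called, 3.78% higher and 1.38% lower. With captan 12000 ppm no member passed, where 6.18% of all tested probes did. With folpet 6000 ppm 2 members fell and 1 rose, where 6.22% of all tested probes were called, 4.6% higher and 1.61% lower. With folpet 16000 ppm 4 members fell and 1 rose, where 12.6% of all tested probes were called, 7.91% higher and 4.68% lower. The shares of members called in either direction, 0% to 7.46%, were near or below these backgrounds. For captan 12000 ppm, 9 members had an unadjusted p under 0.05, as had 20.7% of all tested probes. DESeq2 called 4 members there, and its share over all tested probes is not given, so that count has no background. A test of any difference among the 6 groups called 7 members, and 14% of all tested probes.

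The fall of the induced membrane proteins Ifitm2 and Ifitm3 and of the receptor Il1r1, and the rise of the NF-kappaB inhibitor Nfkbib, made up 11 of the 14 calls in single exposed groups. The other 3 calls were of ligands. The median log2 fold change of the 67 tested members was -0.36 for Cr(VI), -0.17 and -0.10 for captan 6000 and 12000 ppm, and -0.22 and -0.34 for folpet 6000 and 16000 ppm. The same median over all 2541 probes lay between -0.05 and 0.01 in those comparisons. Fitted changes were below 0 for 43, 37, 35, 42 and 47 of the 67 members (64.2%, 55.2%, 52.2%, 62.7% and 70.1%), in the same order of groups. Of all tested probes they were below 0 for 51.5%, 49%, 49.6%, 50% and 52.3%. The roles differed. In the same order of groups the medians were -0.61, -0.27, -0.06, -0.54 and -0.67 for ligands. For receptors they were -0.36, -0.14, -0.66, -0.17 and -0.46. For induced genes and feedback inhibitors they were -0.62, -0.23, 0.10, -0.67 and -0.34. Signal transducers had 0.12, 0.17, 0.22, 0.00 and -0.18.

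**Figure D1:**
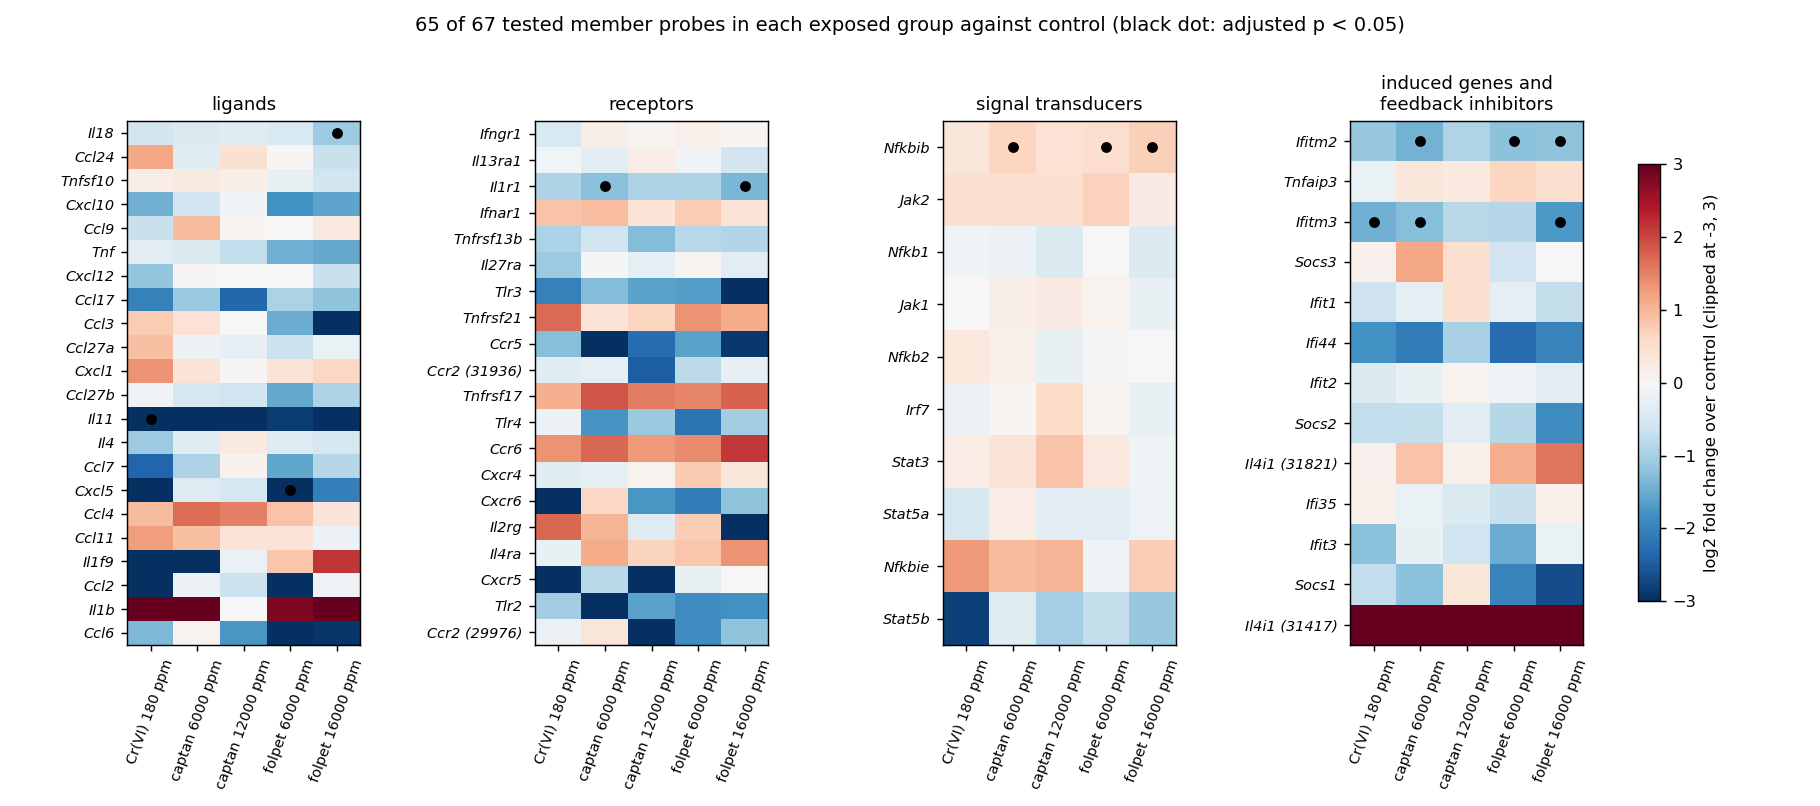
Log2 fold change over control (colour, clipped at -3 and 3) of 65 of the 67 tested member probes, by role, in the 5 exposed groups. Probes run from the highest mean CPM at the top of each panel to the lowest, and black dots mark an adjusted p under 0.05; strong colours without a dot are mostly probes at 0 in many libraries.

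Among ligands, 22 of 35 probes passed the filter. Those that did not are Il20, Il1a, Ifnb1, Il1f8, Ccl12, Cxcl2, Il12b, Il10, Ifng, Il6, Ccl22, Cxcl3 and the probe IL4_30280. The type I and type II interferons of the panel, Ifnb1 and Ifng, are thus both among the genes too low to test. Il20, a cytokine of epithelia and the interleukin 10 family, was at 0 in all 35 exposed libraries and had 10 and 57 counts in control replicates 1 and 5. Cxcl3 was at 0 in all 40 libraries, which would allow up to 0.0160 CPM of their summed counts if counting error alone acted. Values of 1 to 5 counts made up only 1.01% of the panel's values above 0. If low counts had been set to 0 before deposit, that limit is too low.

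Il18, a cytokine of the interleukin 1 family that the gut epithelium stores as an inactive precursor, had a lower level with folpet 16000 ppm. Its lowest, median and highest values were 16.1, 92.2 and 141 CPM in Cr(VI) libraries. They were 59.7, 104 and 115 CPM with captan 6000 ppm and 54.2, 69.97 and 212 CPM with captan 12000 ppm. With folpet they were 66.8, 93.5 and 125 CPM at 6000 ppm and 31.0, 58.7 and 89.9 CPM at 16000 ppm. Control libraries 1 to 5 read 182, 118, 88.3, 78.3 and 195 CPM. The lowest values thus lay in folpet 16000 ppm and in Cr(VI) replicate 3, and every exposed group overlapped with control. Il18 (chr9:50554827-50581840, GRCm38) fell with folpet 16000 ppm, with a log2 fold change of -1.09 (SE 0.33, adjusted p = 0.0187). In the other exposed groups its log2 fold change lay between -0.55 and -0.36 and did not pass. Without control replicate 1 the folpet 16000 ppm value was -0.93 (adjusted p = 0.0716), and without control replicate 5 it was -0.91 (adjusted p = 0.0751).

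Ccl24, eotaxin-2, a chemokine that draws eosinophils, was higher with Cr(VI) than with the fungicides. It read 48.3, 79.2 and 175 CPM (lowest, median, highest) in Cr(VI) libraries. In captan libraries it read 15.7, 37.8 and 42.2 CPM at 6000 ppm and 16.4, 53.9 and 85.9 CPM at 12000 ppm. In folpet libraries it read 24.4, 40.2 and 58.0 CPM at 6000 ppm and 18.3, 23.8 and 31.96 CPM at 16000 ppm. Every Cr(VI) library thus lay above every captan 6000 ppm and folpet 16000 ppm library. The difference between Cr(VI) and the mean of the 4 fungicide groups was 1.29 on the log2 scale (SE 0.30, adjusted p = 0.00360). In that comparison 3 of 67 members were called, 2 higher and 1 lower, and 8.42% of all tested probes, 2.79% higher and 5.63% lower. Against control, which read 35.5, 37.7, 46.8, 75.4 and 0 CPM in replicates 1 to 5, the log2 fold change with Cr(VI) was 1.15 (SE 0.46, adjusted p = 0.130). DESeq2 called that difference (1.21, adjusted p = 0.0409). The acinar share was 46.2% to 82.1% in 6 of the 7 Cr(VI) libraries and 4.92% in replicate 5, against 1.22% to 54.2% in the fungicide libraries. Without the 7 libraries over 50% acinar, which leaves 3 Cr(VI) libraries, the difference from the fungicides was 0.86 (adjusted p = 0.156), and no member was called in that comparison.

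2 ligands were called on the strength of a few control libraries. Il11, a cytokine of the interleukin 6 family made by stromal cells, was at 0 in all 7 Cr(VI) libraries and had 64 and 39 counts in control replicates 3 and 5, with 0 in the other 3 control libraries (adjusted p = 0.0412). The call was lost without control replicate 3 (adjusted p = 0.0520), without control replicate 5 (adjusted p = 0.0980) and without any 1 of the 7 Cr(VI) libraries (adjusted p from 0.0631 to 0.0713). Cxcl5, a chemokine for neutrophils, was at 0 in all folpet 6000 ppm libraries and in all Cr(VI) libraries. Its control values were 10.02 and 8.16 CPM in replicates 1 and 3 and 0 in the others, and the folpet 6000 ppm difference had an adjusted p of 0.0495. That call was lost without control replicates 1, 3 or 5 (adjusted p = 0.0791, 0.0731 and 0.0530) and without any 1 of the folpet 6000 ppm libraries (adjusted p from 0.0694 to 0.0850). The sources used here do not say whether low counts had been set to 0, so no fold is given for either gene. The myeloid markers S100a8, S100a9 and Elane, which neutrophils carry, were at 0 in all 40 libraries. A probe can be at 0 throughout while another probe of its gene is read, as for Il4. These zeros therefore do not show that neutrophils were absent.

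Il1b, a main product of activated macrophages, was at 0 in all 7 captan 12000 ppm and all 5 control libraries. It was above 0 in 2 Cr(VI) libraries, 3 captan 6000 ppm libraries, 1 folpet 6000 ppm library and 2 folpet 16000 ppm libraries, with a highest value of 11.2 CPM, in captan 6000 ppm. The adjusted p against control was 0.145 to 0.519 in the groups with a value above 0, and none passed. Other ligands with large fitted changes were near the lower limit in the same way. Ccl3 reached 22.2 CPM with Cr(VI), 15.4 CPM with captan 6000 ppm and 17.1 CPM in control, and was above 0 in 1 of 7 folpet 16000 ppm libraries. Ccl2, Ccl4, Ccl6 and Il1f9, the mouse interleukin 36 gamma gene, were at 0 in 25 to 31 of the 40 libraries. Tnfsf10, the ligand TRAIL, was above 0 in 39 libraries and its group means ran from 16.4 ± 6.17 CPM in folpet 16000 ppm to 28.7 ± 8.55 CPM in captan 6000 ppm (SD, n = 7 each), against 23.7 ± 21.3 CPM in control (SD, n = 5). Its log2 fold changes, -0.55 to 0.26, did not pass.

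Among receptors, 20 of 23 probes passed the filter, and Cxcr2, Ccr7 and the probe TLR4_30718 did not. Il1r1, the receptor that binds interleukin 1 and starts NF-kappaB signalling, was above 0 in every library. Its lowest, median and highest values were 33.8, 58.7 and 134 CPM in Cr(VI) libraries. With captan they were 32.8, 57.3 and 72.4 CPM at 6000 ppm and 39.8, 80.4 and 101 CPM at 12000 ppm. With folpet they were 45.7, 71.2 and 92.8 CPM at 6000 ppm and 31.0, 50.6 and 71.3 CPM at 16000 ppm. Control replicates 1 to 5 read 60.9, 98.3, 166, 61.2 and 277 CPM. The highest value of the series was thus in control replicate 5, and the lower control values lay within the range of each exposed group. Il1r1 (chr1:40225080-40317257, GRCm38) fell with captan 6000 ppm (log2 fold change -1.26, SE 0.31, adjusted p = 0.00880) and with folpet 16000 ppm (-1.36, SE 0.31, adjusted p = 0.00178). It fell in the mean of the 4 fungicide groups as well (-1.12, SE 0.24, adjusted p = 0.000950), where 12.9% of all tested probes were called, 7.44% higher and 5.47% lower, and 1 member rose and 3 fell. In Cr(VI), captan 12000 ppm and folpet 6000 ppm its log2 fold changes of -0.92, -0.92 and -0.94 had adjusted p of 0.0683, 0.0656 and 0.0600. DESeq2 called these 3 differences (adjusted p = 0.0362, 0.0254 and 0.0186), as did edgeR without control replicate 1 (adjusted p = 0.0355, 0.0294 and 0.0273) and without control replicate 4 (adjusted p = 0.0288, 0.0278 and 0.0242). Without control replicate 5 the value was -0.81 for captan 6000 ppm (adjusted p = 0.127) and -0.91 for folpet 16000 ppm (adjusted p = 0.0392). Without that library the mean of the 4 fungicide groups gave -0.67 (adjusted p = 0.0819). The captan 6000 ppm call was also lost without the 7 libraries over 50% acinar (-0.95, adjusted p = 0.0838), by limma-voom (-0.82, adjusted p = 0.0769), with the 2 groups alone in the fit (adjusted p = 0.101) and with library totals alone (-0.85, adjusted p = 0.305).

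Connective tissue markers were read beside Il1r1. The summed level of 13 stromal and endothelial probes ran from 806 to 1390 CPM in Cr(VI), 633 to 1081 CPM in captan 6000 ppm, 679 to 1295 CPM in captan 12000 ppm, 707 to 1192 CPM in folpet 6000 ppm and 613 to 893 CPM in folpet 16000 ppm. It ran from 880 to 1562 CPM in control libraries. The median log2 fold change of the 13 probes was 0.01 with Cr(VI), where none was called, and -0.12 with folpet 6000 ppm, where 1 fell. It was -0.39 and -0.63 with captan 6000 and 12000 ppm and -0.61 with folpet 16000 ppm, where 2 fell in each. The sum of 6 smooth muscle probes was 1347 to 1935 CPM in Cr(VI), 1155 to 1877 CPM in captan 6000 ppm, 1355 to 2352 CPM in captan 12000 ppm, 1140 to 1913 CPM in folpet 6000 ppm and 1351 to 1583 CPM in folpet 16000 ppm, against 1666 to 3126 CPM in control. All groups but folpet 16000 ppm overlapped with control in that sum. The part of these cells in the fall of Il1r1 was not tested.

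Ifngr1, the ligand-binding chain of the interferon gamma receptor, was lower with Cr(VI) than with the fungicides. It read 76.4, 143 and 226 CPM (lowest, median, highest) in Cr(VI) libraries, while the medians with captan 6000 and 12000 ppm and folpet 6000 and 16000 ppm were 232, 212, 224 and 218 CPM. Control replicates 1 to 5 read 301, 181, 174, 212 and 116 CPM. Only 1 Cr(VI) library lay above the mean of the fungicide groups. The difference was -0.57 on the log2 scale (SE 0.16, adjusted p = 0.0220), and against control it was -0.46 (SE 0.22, adjusted p = 0.220). The difference from the fungicides did not pass with the acinar share as a covariate (-0.40, adjusted p = 0.179), nor without the 7 libraries over 50% acinar (-0.52, adjusted p = 0.246). It was also lost without Cr(VI) replicates 3, 4 or 6 (adjusted p = 0.0892, 0.0555 and 0.0910).

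Other receptors did not pass. Il13ra1, a chain shared by the receptors for interleukins 4 and 13, had medians of 84.5 CPM with Cr(VI), 85.4 and 102 CPM with captan 6000 and 12000 ppm, 71.0 and 71.8 CPM with folpet 6000 and 16000 ppm and 85.9 CPM in control. Tnfrsf13b, the receptor TACI of B cells and plasma cells, was above 0 in every library. Its medians were 34.6 CPM with Cr(VI), 36.6 and 18.6 CPM with captan 6000 and 12000 ppm, 27.7 and 27.2 CPM with folpet 6000 and 16000 ppm and 67.6 CPM in control, and its log2 fold change with captan 12000 ppm was -1.30 (adjusted p = 0.0656). DESeq2 called that difference (-1.35, adjusted p = 0.0217); Tnfrsf13b was chosen after its values were seen. Cxcr5, Cxcr6, Tlr2, Il2rg, Tnfrsf17 and the probe CCR2_29976 gave large fitted changes but were at 0 in 20 to 35 libraries. The second Ccr2 probe, CCR2_31936, was at 0 in 17 libraries and did not pass either. Of the Tlr4 probes, TLR4_32033 had medians of 4.92 CPM with Cr(VI) and 5.64 CPM in control, and TLR4_30718 was at 0 in all libraries.

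All 12 signal transducer probes passed the filter. Nfkbib encodes I-kappaB beta, which holds NF-kappaB in the cytoplasm. It was read at 178, 258 and 303 CPM (lowest, median, highest) in Cr(VI) libraries. In captan libraries it was read at 224, 325 and 414 CPM at 6000 ppm and 211, 271 and 321 CPM at 12000 ppm. In folpet libraries it was read at 237, 296 and 314 CPM at 6000 ppm and 283, 333 and 385 CPM at 16000 ppm. Control replicates 1 to 5 read 229, 147, 181, 221 and 218 CPM. All libraries of both folpet groups lay above all control libraries, and all 28 fungicide libraries lay above the control mean.

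Nfkbib (chr7:28758251-28767512, GRCm38) rose with captan 6000 ppm (log2 fold change 0.64, SE 0.15, adjusted p = 0.00536), folpet 6000 ppm (0.51, SE 0.15, adjusted p = 0.0305) and folpet 16000 ppm (0.72, SE 0.15, adjusted p = 0.000715). The rise in the mean of the 4 fungicide groups was 0.58 (SE 0.13, adjusted p = 0.00157), and it passed in all 9 other settings and in all 40 fits that left out 1 library. With captan 12000 ppm the value was 0.44 (SE 0.15, adjusted p = 0.0692) and with Cr(VI) 0.33 (SE 0.15, adjusted p = 0.200). The difference between Cr(VI) and the fungicide mean, -0.25, had an adjusted p of 0.169. Of the members called against control, Nfkbib was the one that rose. The folpet 6000 ppm call was lost without control replicate 2 (0.45, adjusted p = 0.0864), without control replicate 3 (0.51, adjusted p = 0.0572) and without folpet 6000 ppm replicate 5 (0.50, adjusted p = 0.0513). It was also lost with DESeq2 size factors in edgeR (adjusted p = 0.0584) and with the acinar share as a covariate (adjusted p = 0.0633). Library totals alone (adjusted p = 0.169) and the 2 groups alone in the fit (adjusted p = 0.128) lost it too. In those last 2 settings the captan 6000 ppm call was lost as well (adjusted p = 0.0760 and 0.118). The folpet 16000 ppm call was lost with library totals alone (adjusted p = 0.205).

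Jak2, a kinase of many cytokine receptors, had medians of 181 CPM with Cr(VI), 158 and 146 CPM with captan 6000 and 12000 ppm, 186 and 138 CPM with folpet 6000 and 16000 ppm and 112 CPM in control. Its log2 fold changes were between 0.26 and 0.69 and did not pass, the lowest adjusted p being 0.125 with folpet 6000 ppm. limma-voom called the Stat5b probe with Cr(VI) (adjusted p = 0.0328), and edgeR did not; Stat5b was chosen after its values were seen.

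**Figure D2:**
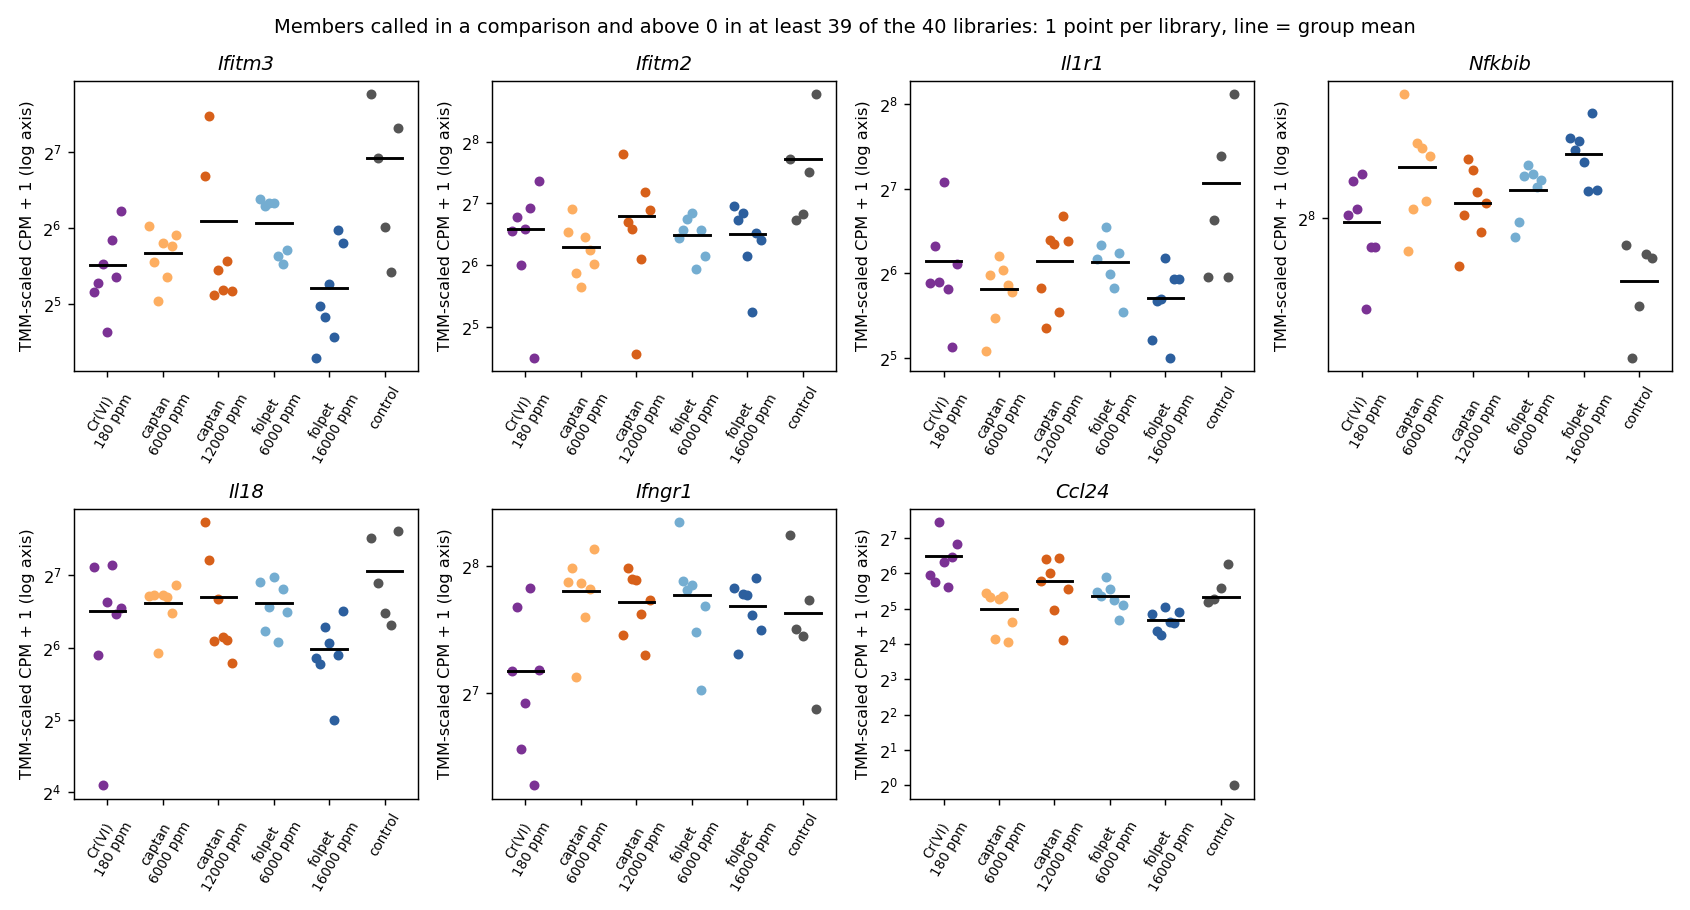
TMM-scaled CPM plus 1 (log axis) of 7 called members in the 40 libraries, by group, with 1 point per library and the group mean as a line. Control libraries spread widely for Ifitm2, Ifitm3 and Il1r1, where replicate 5 read 434, 159 and 277 CPM, and lie below the folpet libraries for Nfkbib.

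All 13 probes of induced genes and feedback inhibitors passed the filter. Ifitm2 and Ifitm3 encode small membrane proteins, induced by interferons, that hinder the entry of enveloped viruses. Ifitm3 read 23.7, 39.9 and 73.8 CPM (lowest, median, highest) in Cr(VI) libraries. In captan libraries it read 31.7, 53.1 and 64.1 CPM at 6000 ppm and 33.7, 42.4 and 178 CPM at 12000 ppm. In folpet libraries it read 45.1, 77.1 and 82.0 CPM at 6000 ppm and 18.5, 30.2 and 61.5 CPM at 16000 ppm. Control replicates 1 to 5 read 216, 120, 63.6, 41.8 and 159 CPM. Control replicates 1, 2 and 5 thus lay above every exposed library except captan 12000 ppm replicate 2, and control replicates 3 and 4 lay among the exposed ones.

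Ifitm3 (chr7:141009586-141010770, GRCm38) fell with Cr(VI) (log2 fold change -1.43, SE 0.37, adjusted p = 0.0116), captan 6000 ppm (-1.27, SE 0.37, adjusted p = 0.0322) and folpet 16000 ppm (-1.73, SE 0.37, adjusted p = 0.000886). The last of these passed in all 40 fits that left out 1 library, with values from -1.95 to -1.39. Without control replicate 1 the value was -1.09 for Cr(VI) (adjusted p = 0.0906) and -0.92 for captan 6000 ppm (adjusted p = 0.166). The captan 6000 ppm call was also lost without control replicate 5 (-1.15, adjusted p = 0.0837) and without captan 6000 ppm replicates 3, 4 or 5 (adjusted p = 0.0665, 0.0507 and 0.0603). The Cr(VI) call for Ifitm3 held in 5 of 9 other settings. It was lost with library totals alone (-1.70, adjusted p = 0.0983), by limma-voom (-1.19, adjusted p = 0.0877), without the 7 libraries over 50% acinar (-1.59, adjusted p = 0.0789) and with the 2 groups alone in the fit (-1.40, adjusted p = 0.102). The captan 6000 ppm call held in 6 of the 9. It was lost with library totals alone (-0.90, adjusted p = 0.388), by limma-voom (-0.98, adjusted p = 0.0863) and with the 2 groups alone in the fit (-1.28, adjusted p = 0.0919). The folpet 16000 ppm call was lost in 1 of the 9, library totals alone (-1.66, adjusted p = 0.0515). With captan 12000 ppm and folpet 6000 ppm the values were -0.83 (adjusted p = 0.190) and -0.86 (adjusted p = 0.182). Captan 12000 ppm replicate 2 held the highest exposed value, and without it Ifitm3 passed there as well (-1.26, adjusted p = 0.0204).

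Ifitm2 read 21.7, 95.0 and 163 CPM (lowest, median, highest) in Cr(VI) libraries. In captan libraries it read 49.1, 75.3 and 119 CPM at 6000 ppm and 22.7, 103 and 221 CPM at 12000 ppm. In folpet libraries it read 60.3, 93.6 and 114 CPM at 6000 ppm and 36.8, 91.4 and 124 CPM at 16000 ppm. Control replicates 1 to 5 read 209, 105, 112, 181 and 434 CPM, so that control replicates 2 and 3 lay within the range of every exposed group. Ifitm2 (chr7:140954837-140955987, GRCm38) fell with captan 6000 ppm (log2 fold change -1.42, SE 0.37, adjusted p = 0.0141), folpet 6000 ppm (-1.22, SE 0.37, adjusted p = 0.0376) and folpet 16000 ppm (-1.21, SE 0.37, adjusted p = 0.0225). Without control replicate 5 these were -0.97 (adjusted p = 0.141), -0.77 (adjusted p = 0.279) and -0.76 (adjusted p = 0.195). Without the 7 libraries over 50% acinar, control replicate 5 among them, these were -0.86 (adjusted p = 0.308), -0.64 (adjusted p = 0.473) and -0.65 (adjusted p = 0.378). With the acinar share as a covariate the calls at 6000 ppm were lost for captan (-1.26, adjusted p = 0.0841) and folpet (-1.07, adjusted p = 0.134). With library totals alone all 3 calls were lost (adjusted p = 0.331, 0.558 and 0.246), and limma-voom did not call either folpet group (adjusted p = 0.159 and 0.0731). The folpet 6000 ppm call was also lost without control replicate 1 (adjusted p = 0.0624) and without folpet 6000 ppm replicates 1, 2, 5, 6 or 7 (adjusted p from 0.0521 to 0.0771). The folpet 16000 ppm call was also lost without folpet 16000 ppm replicate 5 (-1.08, adjusted p = 0.0544). With Cr(VI) the value was -1.13 (SE 0.37, adjusted p = 0.0611) and with captan 12000 ppm -0.91 (SE 0.37, adjusted p = 0.144). The coding sequences of Ifitm2 and Ifitm3 are identical at 75.8% of aligned bases, 332 in all, and probe sequences are not used here, so that reads shared between the 2 genes cannot be set aside.

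**Figure D3:**
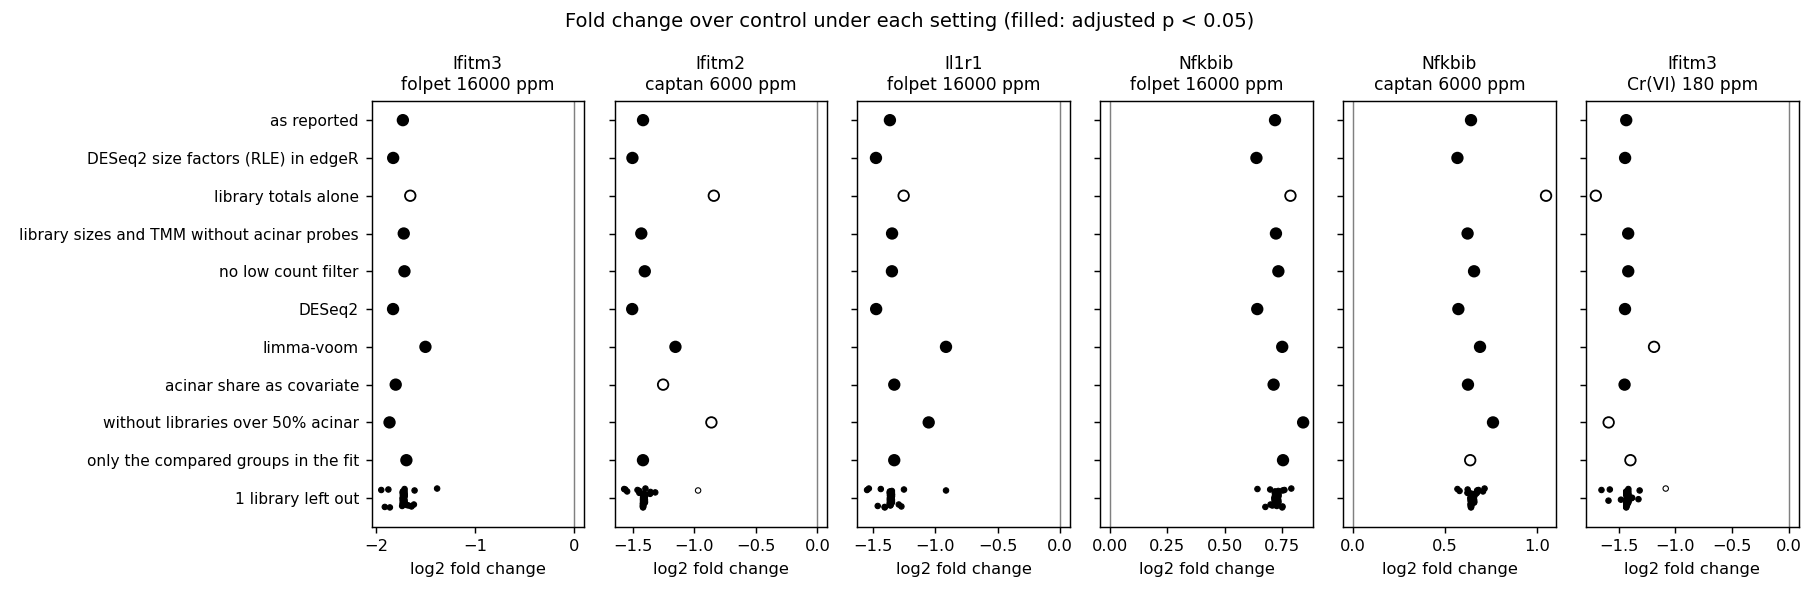
Log2 fold change over control of 4 members in 6 comparisons (columns) under each setting (rows), filled where the adjusted p is under 0.05, with 1 small point per left-out library in the last row. All values kept the direction reported; Ifitm2 with captan 6000 ppm is lost in the left-out fit at -0.97, and Nfkbib with folpet 16000 ppm is lost with library totals alone.

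Other interferon-induced members did not follow Ifitm2 and Ifitm3 past the threshold. Ifi44 had medians of 11.8 CPM with Cr(VI), 10.1 and 10.5 CPM with captan 6000 and 12000 ppm, 12.5 and 8.79 CPM with folpet 6000 and 16000 ppm and 47.2 CPM in control. All folpet 6000 ppm libraries lay below all control libraries. It was not called in any group, while limma-voom called it in the mean of the 4 fungicide groups (log2 fold change -2.29, adjusted p = 0.0163). Ifi44 was chosen after its values were seen. Ifit1, Ifit2, Ifit3 and Ifi35 were at 0 in 8, 4, 11 and 3 libraries, and none passed. The feedback inhibitor Socs1, which blocks JAK kinases, read 0, 5.43 and 9.66 CPM (lowest, median, highest) with Cr(VI) and 0, 0 and 5.01 CPM with folpet 16000 ppm, against 2.51, 14.8, 14.2, 5.80 and 0 CPM in control replicates 1 to 5. Its log2 fold change was -0.75 (SE 1.73) with Cr(VI) and -2.65 (SE 1.77, adjusted p = 0.390) with folpet 16000 ppm, and the wide errors show how little a probe at 0 in 19 libraries can resolve. Tnfaip3, the NF-kappaB inhibitor A20, had log2 fold changes of -0.21 to 0.64 and did not pass. Both Il4i1 probes gave positive fitted values throughout. IL4I1_31417 was at 0 in 21 of the 35 exposed libraries and in all 5 control ones, IL4I1_31821 was at 0 in 5 libraries, and neither passed.

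Many interferon-induced genes were highest together in 1 library, captan 12000 ppm replicate 2. For 20 probes of such genes, chosen after their values were seen, this library had the highest value of its group for 17, and the highest of all 40 libraries for 11. Among the 10 members in that list the counts were 8 and 6. These counts describe the chosen list only, since no matching count over all tested probes was made. Ifit1 read 170 CPM there, against at most 25.01 CPM in the rest of the group, and Irf7, the regulator that amplifies type I interferon, 341 CPM against at most 157 CPM. The chemokine Cxcl10 read 100 CPM, against at most 36.7 CPM, and Socs1 38.0 CPM, against at most 8.29 CPM. The same held for genes outside the family rule, among them Isg15, a ubiquitin-like modifier, at 1638 CPM against at most 411 CPM, and Usp18, which removes it, at 832 CPM against at most 99.5 CPM.

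In that library 7 probes of T and NK cell markers, mostly Gzma, summed to 611 CPM, the highest of the 40, while the rest of its group lay between 92.02 and 308 CPM. Its sums for myeloid markers (658 CPM) and for B and plasma cell markers (297 CPM) lay inside the range of its group, and acinar transcripts took 8.02% of its counts. Of the B and plasma cell probes, XBP1_31868 was by far the largest in this group, with a mean of 298 CPM. Cd79a averaged 48.8 CPM and Cd79b 22.4 CPM. What set this library apart was not tested. Neither Ifnb1 nor Ifng passed the filter on low counts. In control replicate 5, where fewer probes of the whole panel were above 0 than in any other library, 15 of the 20 probes were at 0. Leaving out captan 12000 ppm replicate 2 raised the members called against control in its group to 1, the Ifitm3 probe. Such a rise was not particular to this library, since leaving out replicate 6 of the same group gave 3.

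**Figure D4:**
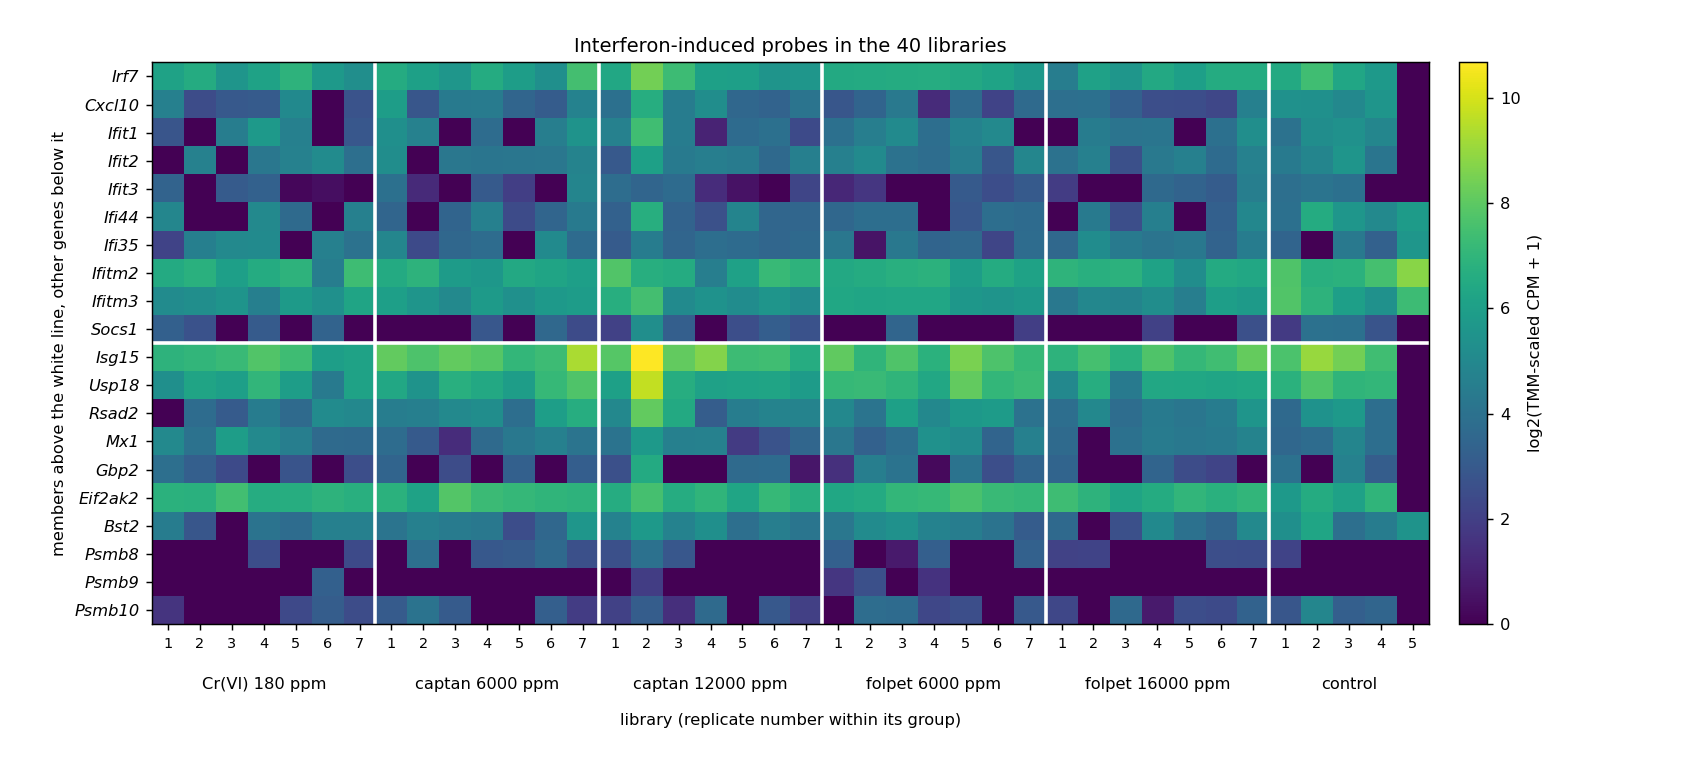
Levels, as log2(TMM-scaled CPM + 1), of 20 probes of interferon-induced genes (rows) in the 40 libraries (columns), by group, with the 10 members above the white line. The 20 probes were chosen after their values were seen. Captan 12000 ppm replicate 2 has the highest value of its group for 17 of the 20 probes, and its values run from 1638 CPM for Isg15 to 2.81 CPM for Psmb9, while control replicate 5 is at 0 for 15 probes.

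Doses and compounds were compared directly. Between captan 12000 and 6000 ppm no member passed, and 0% of all tested probes did. An unadjusted p under 0.05 was found for 5 members and for 5.82% of all tested probes, and neither DESeq2 nor limma-voom called a member. Between folpet 16000 and 6000 ppm no member passed either (1.73% of all tested probes did), with 6 members and 10.5% of all tested probes at an unadjusted p under 0.05. Of these Ifitm3 had a log2 difference of -0.88 (SE 0.35, adjusted p = 0.240) and Il18 -0.65 (SE 0.30, adjusted p = 0.400).

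At 6000 ppm, the dose that captan and folpet share, no member passed the test of their difference (0.157% of all tested probes did). The 95% interval of captan minus folpet, on the log2 scale, was -1.10 to 0.28 for Ifitm3, -0.89 to 0.49 for Ifitm2, -0.90 to 0.26 for Il1r1 and -0.14 to 0.40 for Nfkbib. These intervals include 0, which does not show that the 2 compounds act alike. An unadjusted p under 0.05 was found for 5 members and 5.12% of all tested probes. Socs3 had the lowest of them. It was chosen after its values were seen. Socs3, a feedback inhibitor induced by the interleukin 6 and STAT3 pathway, read 37.1, 68.6 and 114 CPM (lowest, median, highest) with captan and 6.88, 18.6 and 40.6 CPM with folpet. The ranges overlapped between 37.1 and 40.6 CPM. The difference was 1.73 on the log2 scale (SE 0.45, adjusted p = 0.0916). It passed by limma-voom (1.97, adjusted p = 0.0111), without control replicate 5 (1.74, adjusted p = 0.00575), without the 7 libraries over 50% acinar (1.72, adjusted p = 0.00594) and with the 2 groups alone in the fit (1.73, adjusted p = 0.0140), and not by DESeq2. Control libraries read 17.0, 55.6, 42.0, 46.1 and 0 CPM for Socs3.

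Genes of the same pathways that lie outside the symbol rule were read from lists written by hand. Of 19 probes of other NF-kappaB and Toll-like receptor pathway genes, 1 passed against control in a single group. That was Rela, the p65 subunit of NF-kappaB, which fell with folpet 16000 ppm (log2 fold change -0.86, SE 0.26, adjusted p = 0.0220) and in the mean of the 4 fungicide groups (-0.65, SE 0.21, adjusted p = 0.0307). Relb, a subunit of the alternative pathway, was higher with Cr(VI) than with the fungicides (0.78, SE 0.15, adjusted p = 0.000367). Nfkbia, the fast-acting inhibitor, was lower with captan than with folpet at 6000 ppm (-0.64, SE 0.14, adjusted p = 0.0122).

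Of 16 other JAK, STAT and interferon probes, Cd74 fell in all 5 exposed groups. Cd74, which guides MHC class II molecules to the compartment where they load peptide, had log2 fold changes of -1.95 with Cr(VI), -1.25 and -1.74 with captan 6000 and 12000 ppm and -1.26 and -2.28 with folpet 6000 and 16000 ppm (adjusted p at most 0.00536). Cd74 was also lower with folpet 16000 ppm than with folpet 6000 ppm (-1.02, SE 0.27, adjusted p = 0.0350). Csf1r, the macrophage colony-stimulating factor receptor, fell with folpet 16000 ppm, where all 7 libraries were at 0 (adjusted p = 0.0150), and in the mean of the 4 fungicide groups (adjusted p = 0.00598). It was above 0 in 2 of 5 control libraries. Of 15 tested probes for prostaglandin, adhesion and acute inflammation genes, Ptger4, a receptor for prostaglandin E2, rose with Cr(VI) (0.78, SE 0.17, adjusted p = 0.00207), captan 12000 ppm (0.90, SE 0.17, adjusted p = 0.000272) and folpet 16000 ppm (1.05, SE 0.17, adjusted p = 1.06e-05). Ptger4 was also higher with folpet 16000 ppm than with folpet 6000 ppm (0.62, SE 0.15, adjusted p = 0.0163). Between Cr(VI) and the fungicide mean 2 other probes of this list were called, both near the lower limit. Hmox1, which encodes the heme-degrading enzyme of the oxidative stress response, was lower with Cr(VI) (adjusted p = 0.0266), and it was at 0 in all 7 Cr(VI) libraries. It was above 0 in 3 and 5 of 7 libraries with captan 6000 and 12000 ppm, in 2 and 6 of 7 with folpet 6000 and 16000 ppm and in 1 of 5 control libraries, with a highest value of 37.6 CPM, in captan 12000 ppm. Ptger2, another receptor for prostaglandin E2, was higher with Cr(VI) (adjusted p = 0.0459). It was above 0 in 4 of 7 Cr(VI) libraries, up to 16.8 CPM, in 1 of 7 at each captan dose, in 3 of 7 with folpet 6000 ppm and in no folpet 16000 ppm or control library.

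Markers of immune cells were read beside these genes. Myeloid markers, 9 probes, summed to 1009 to 2409 CPM with Cr(VI), 660 to 905 CPM with captan 6000 ppm, 561 to 868 CPM with captan 12000 ppm, 689 to 1211 CPM with folpet 6000 ppm and 341 to 1129 CPM with folpet 16000 ppm, against 679 to 1625 CPM in control. Of the 6 that passed the filter, 4 fell with folpet 16000 ppm, 1 with each captan dose and none with Cr(VI) or folpet 6000 ppm. Lyz2 averaged 800 CPM with Cr(VI) and 557 CPM in control, and Cd68 41.6 and 24.4 CPM. The others averaged less with Cr(VI) than in control. C1qa had 140 and 160 CPM, C1qb 239 and 281 CPM, C1qc 182 and 189 CPM, and Csf1r 3.12 and 12.6 CPM. S100a8, S100a9 and Elane were at 0 throughout. T and NK cell markers, 7 probes, summed to 35.0 to 105 CPM with Cr(VI), 63.9 to 383 CPM with captan 6000 ppm, 92.02 to 611 CPM with captan 12000 ppm, 147 to 297 CPM with folpet 6000 ppm and 52.1 to 156 CPM with folpet 16000 ppm, against 118 to 522 CPM in control. Every Cr(VI) library thus lay below every control library in that sum, and 1 of the 7 probes fell with Cr(VI) and 1 with folpet 16000 ppm. Gzma, a granzyme of killer lymphocytes, averaged 37.5 CPM with Cr(VI), 192 and 173 CPM with captan 6000 and 12000 ppm, 177 and 55.8 CPM with folpet 6000 and 16000 ppm and 232 CPM in control. Gzma was the largest part of the T and NK sum in each group. Cd4 averaged 9.20 CPM with Cr(VI) and 9.94 CPM in control, Cd5 3.73 and 3.78 CPM, and Cd3g 5.42 and 6.32 CPM. In the same order Gzmb averaged 17.2 and 36.0 CPM, Cd8b1 2.93 and 7.24 CPM, and Cd3d 0 and 0.809 CPM. The part of these cells in the changes of members and pathway genes was not tested.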

How the data were processed

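TempO-Seq libraries of mouse duodenum were read from 1 table of raw counts that the authors deposited, whole numbers for each probe that show no scaling. bcl2fastq 2.17.1.14, Bowtie and the build mm9 are named in the submitters' processing notes, without the step each served. Columns were matched to samples by title, and replicate numbers follow accession order. Counts were tested in R 4.3.3 with edgeR 4.0.16 (filterByExpr with a minimum count of 10 and a minimum total of 15, TMM, robust quasi-likelihood fit of all 40 libraries with 34 residual degrees of freedom), with Benjamini-Hochberg adjustment over 2541 probes. Tests are 2-sided. The SE was taken as the size of the log2 fold change over the root of F, and intervals are 95%. No molecular identifiers are given, so precision and floors (3 counts) cover counting error only. The test was checked on simulated counts. Alternatives were other scalings, no filter, DESeq2 1.42.0, limma-voom (limma 3.58.1), the acinar share as covariate, fewer groups or libraries, and each library left out. Members and lists were chosen with earlier results of these data known, and roles were assigned by hand. Named genes are members called in any of 11 tests, the 3 largest rises and falls against control, the 3 highest per role, Il1r1 and Socs1; members that failed the filter are named only. Promoters and gene positions come from RefSeq (GRCm38.p6) and GENCODE vM21 (GRCm38), not from the deposited table. Of the symbols, 79 matched the RefSeq gene table. Results of 2 members are not reported here; they remain in the counts over all members.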

Additional observations from a re-analysis of the deposited data

Results flagged for a closer look

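In single groups of libraries, a value far from the others of its group was looked for in 34 member probes, and 107 groups of libraries could be examined. In 15 of these the lowest or highest library stood apart. The cut-off would pick out about 1 in 20 groups of normally distributed values. Libraries at 0 do not follow that distribution, so the 15 cannot be set against that rate. Of the 15, 13 were libraries at 0, which read -1.26 on the log2 CPM scale. Control replicate 5 was such a library for Ccl24, Cxcl10, Ifit1, Ifit2, Il13ra1, Irf7 and Tnfaip3. The others at -1.26 were Cr(VI) replicate 7 for Ccl3, Cr(VI) replicate 6 for Cxcl10, captan 6000 ppm replicate 2 for Ifi44 and Ifit2, folpet 6000 ppm replicate 4 for Ifi44 and folpet 6000 ppm replicate 7 for Ifit1. Il18 was low at 5.91 in captan 6000 ppm replicate 3 (next 6.47) and at 4.04 in Cr(VI) replicate 3 (next 5.88).

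The effect of Cr(VI) differed from the mean effect of the fungicides, in the test of that difference, for Ifngr1 and Ccl24. The log2 differences were -0.57 for Ifngr1 and 1.29 for Ccl24.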

How the results depend on the processing

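No paired analysis was possible because the labels give no replicate numbers. Of 97 counts of called members in other settings, 69 stayed within 1.5 times the reported count. Shares over all tested probes are not given for the other settings or left-out libraries, so the counts below have no background. With library totals alone the count was 0 for Cr(VI), captan 6000 ppm, folpet 6000 ppm and folpet 16000 ppm, and 1 for the fungicide mean. That scaling shifted the median of all probes by 0.28 to 0.44 (captan and folpet 6000 ppm, captan 12000 ppm). The shift was -0.27 for Cr(VI), 0.26 for the fungicide mean and 0.00208 for folpet 16000 ppm. Without a filter the count was 1 (Cr(VI)), 9 (fungicide mean) and 18 (any difference among groups). DESeq2 gave 4 for Cr(VI) and 4 for captan 12000 ppm, where RLE scaling gave 1. limma-voom gave 1 (Cr(VI)), 2 (captan 6000 ppm), 1 (folpet 6000 ppm), 1 (captan against folpet) and 3 (any difference). The acinar covariate gave 0 for folpet 6000 ppm and 4 for any difference. Without libraries over 50% acinar the count was 0 for Cr(VI), 0 for Cr(VI) against the fungicides, 2 for captan 6000 ppm, 1 for folpet 6000 ppm and 1 for captan against folpet. With the compared groups alone it was 0 (Cr(VI)), and 1 each for captan 6000 ppm, folpet 6000 ppm, the folpet dose step and captan against folpet. Leaving out 1 library gave 1 to 4 (Cr(VI)), 1 to 5 (captan 6000 ppm), 0 to 3 (captan 12000 ppm), 0 to 5 (folpet 6000 ppm), 3 to 6 (folpet 16000 ppm), 0 to 1 (captan against folpet), 2 to 6 (fungicide mean), 2 to 4 (Cr(VI) against the fungicides), 4 to 8 (any difference) and 0 for both dose steps. Without control replicate 5 the counts were 1, 1, 1, 1 and 3 for Cr(VI), captan 6000 and 12000 ppm and folpet 6000 and 16000 ppm. Of 176 values of single called members in other settings, 127 stayed past the threshold and 49 kept their direction and missed it. The causes were not tested. Precision is limited by depth, by 43.4% of member values at 0 and by 5 control libraries.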
